A study of Mus musculus with 18 samples.

Results

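Broad distal peaks were the stretches of accessible chromatin away from promoters that were at least 3000 bp wide. They were chosen by width alone from the table of distal peaks, and 8720 of the 157614 distal peaks, or 5.53% of them, met the rule. Peaks had been called in individual libraries and combined, so width itself depended on the accessibility that is compared below. How far this entered the differences between groups and between widths was not tested. The full set held 194284 peaks, promoter peaks included. Chromatin accessibility had been measured by ATAC-seq, in which a transposase cuts and tags open DNA, in bone marrow-derived macrophages (BMDMs) of 3 Il10-/- mice on the C57BL/6J background. The mice were 12-week-old males, and the cells were grown for 6 days before use. Every group, controls included, therefore lacked the cells' own IL-10. The 6 groups of 3 libraries were unstimulated cells without treatment (Unstimulated), cells given 500 nM (+)-JQ1 (JQ1), cells given 10 ng/mL recombinant IL-10 (IL-10), and the same 3 conditions followed by 50 ng/mL LPS (LPS, LPS+JQ1 and LPS+IL-10). Treatment lasted 12 hours before LPS or PBS was added for 4 hours. That a replicate number marks a mouse is not stated, and 1 knockout strain and 1 sex limit the model.

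Accessible distal DNA often holds enhancers, short elements where transcription factors bind and from which genes some distance away are switched on. Where several elements lie close together, as around genes that define a cell type or respond strongly to a signal, their accessible stretches can merge into 1 wide region. LPS acts on macrophages through TLR4 and the transcription factors NF-kappaB, AP-1 and IRF. Interleukin-10 acts through STAT3 and restrains that response. (+)-JQ1 displaces BET proteins, which read acetylated histones and help RNA polymerase to elongate, from chromatin.

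Stretches of 5 broad peaks are given first, each from a set the results below turn on, so that the kind of sequence under a broad peak can be seen. In each, capitals mark matches, on either strand, to AP-1 (TGANTCA), PU.1 (GAGGAAGT), IRF (GAAANNGAA) or C/EBP (TTGCNNAA) letters. The windows are the exon-free 150 bases of a named peak with the most different motifs, so they are not typical of the peaks' whole length. Coordinates of these windows count from 1 on mm9 and the forward strand is shown.
Between Tnf and Ltb (chr17:35334111-35334260): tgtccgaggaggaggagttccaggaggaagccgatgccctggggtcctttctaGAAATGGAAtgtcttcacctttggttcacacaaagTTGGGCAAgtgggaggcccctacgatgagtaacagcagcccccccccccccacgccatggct
Ifit1 (chr19:34720990-34721139): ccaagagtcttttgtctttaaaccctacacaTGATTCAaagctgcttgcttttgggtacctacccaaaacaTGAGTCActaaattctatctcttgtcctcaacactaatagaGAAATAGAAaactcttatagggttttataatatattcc
Near Tlr7 (chrX:163737684-163737833): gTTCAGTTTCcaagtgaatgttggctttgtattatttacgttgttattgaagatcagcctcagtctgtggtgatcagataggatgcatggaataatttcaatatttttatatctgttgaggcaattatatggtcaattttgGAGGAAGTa
Near Zfp703 (chr8:28094492-28094641): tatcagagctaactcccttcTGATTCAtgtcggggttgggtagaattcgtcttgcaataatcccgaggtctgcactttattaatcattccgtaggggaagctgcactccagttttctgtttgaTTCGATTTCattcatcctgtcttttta
Gpnmb intron (chr6:49018250-49018399): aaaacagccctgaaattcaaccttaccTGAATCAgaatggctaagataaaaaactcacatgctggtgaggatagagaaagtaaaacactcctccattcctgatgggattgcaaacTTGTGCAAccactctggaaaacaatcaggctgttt

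The first 2 windows lie in peaks that rose with LPS near a cytokine gene and an interferon-stimulated gene. The next 2 lie in the peaks near Tlr7 and Zfp703, which moved in opposite directions when (+)-JQ1 preceded LPS. The fifth lies in the peak with the largest fall on LPS.

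Over their whole length, matches to these letters were thinner per kb in broad peaks than in distal peaks of 500 to 1000 bp. For AP-1 there were 0.348 matches per kb against 0.421, for PU.1 0.0841 against 0.132, for IRF 0.354 against 0.417, for C/EBP 0.414 against 0.465 and for kappaB letters (GGAANTTCC) 0.0187 against 0.0225. Because they are long, 76.2% of broad peaks still held an AP-1 match and 73.2% an IRF match, against 25.0% and 22.9% of the 500 to 1000 bp peaks. In the central 150 bases of each peak, an AP-1 match was present in 5.23% of broad peaks and 7.40% of all distal peaks, a PU.1 match in 1.03% and 2.96%, an IRF match in 4.56% and 5.50%, and a C/EBP match in 5.47% and 6.88%. The centre of a merged region need not be the centre of any 1 element.

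The broad peaks had a median width of 3929 bp, with quartiles of 3369 and 5055 bp, and the widest spanned 31771 bp. Together they covered 40.25 Mb, 20.3% of the bases in distal peaks, and took 22.0% of the distal reads. The 89636 distal peaks of 500 to 1000 bp, used for comparison throughout, covered 63.57 Mb and took 24.7% of the distal reads. Width was not only a matter of area. Reads per length were also higher, at a median of 2.58 CPM (counts scaled to an equal library total) per kb (quartiles 1.87 and 3.65) against 1.36 (1.14 and 1.77) in the 500 to 1000 bp peaks, as means over the 18 libraries. Within the broad class the density hardly moved with width, at 2.60 CPM per kb from 3 to 4 kb, 2.59 from 4 to 6 kb and 2.51 from 6 kb up. Distal peaks of 2000 to 3000 bp had a median of 2.48, so this density was not particular to broad peaks. A broad peak thus rested on many more reads, with a median of 11.2 CPM against 0.952.

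The position of the broad peaks differed as well. The nearest other peak was a median of 182 bp away, against 867 bp, and lay within 1000 bp for 86.3% of broad peaks against 52.8%. Introns held 37.7% of broad peaks, 34.5% overlapped an exon and 27.0% were intergenic, against 47.5%, 12.9% and 39.5% of the 500 to 1000 bp peaks. An exon is more often reached by a longer window, and the exon share rose from 28.4% at 3 to 4 kb to 52.0% at 6 kb or more. The median distance to a transcription start site (TSS) was 13823.5 bp against 20639 bp. In 73 broad peaks the annotation placed a TSS inside the window although the peak was classed as distal. GC content was 46.5% against 45.4% and the observed-to-expected CpG ratio 0.199 against 0.179. These are descriptions of fixed regions, without replicates.

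Width has no natural break at 3000 bp. There were 697 peaks within 100 bp above the limit and 743 within 100 bp below it. Of the peaks just inside, 3000 bp wide, those nearest Cd180 and Igf2bp2 had 6.54 and 3.29 CPM per kb. Of those just outside, 1 bp narrower, those nearest Zc3hav1l and Psma4 had 1.13 and 1.56.

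Broad peaks gathered around some genes. Each peak was assigned to the gene with the nearest TSS, and 4500 genes had at least 1 broad peak, 1755 had 2 or more, 322 had 5 or more and 55 had 10 or more. The genes with the most were Slco3a1, an organic anion transporter, with 28, Tns3, a focal adhesion protein, with 27, Etv6, an ETS-family repressor, and Myo1e, an unconventional myosin, with 22 each. Mitf, a factor of lysosome and osteoclast genes, had 18 and Runx1, a factor of blood development, had 16. This ranking was made after the values were seen.

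The 18 libraries held 12020526 to 25908198 counts in peaks. All 8 annotated macrophage markers had a promoter peak, with a median of 15.2 CPM per kb against 2.43 over all promoter peaks. Promoter peaks were present for 1 of 5 T cell, 3 of 4 B cell, 4 of 6 neutrophil, 2 of 5 fibroblast, 3 of 3 endothelial and 1 of 3 erythroid markers, at medians of 0 to 3.57 CPM per kb. The endothelial marker Pecam1, which myeloid cells also carry, reached 20.2. The ranges overlapped otherwise too. The macrophage markers Csf1r, Itgam and Cd68 had 4.76, 4.78 and 4.64 CPM per kb, below the neutrophil marker Camp (6.33) and the fibroblast marker Col1a1 (5.67). Camp, the highest of the other markers after Pecam1, had means of 2.81 in Unstimulated and 9.21 in LPS libraries. In bulk ATAC-seq, more cells with an open region and more cutting per cell cannot be told apart. Unstimulated replicates 1 and 2 stood apart in their scaling, with TMM factors of 1.24 and 1.15 against 0.896 to 1.05 in the other groups. Replicate 3, at 1.04, lay within that range. Results against Unstimulated that turn on scaling are therefore given under more than 1 scaling.

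The first question was whether stimulation moved accessibility in broad peaks as a class. The share of reads in broad against 500 to 1000 bp distal peaks needs no scaling between libraries. As log2 of the ratio, it was -0.403, -0.307 and -0.234 in the Unstimulated libraries, -0.243, -0.282 and -0.255 with JQ1 and -0.176, -0.230 and -0.205 with IL-10. It was -0.114, -0.061 and -0.110 with LPS, -0.088, -0.150 and -0.120 with LPS+JQ1 and -0.026, -0.052 and -0.019 with LPS+IL-10. On this ratio, the 9 LPS-stimulated libraries did not overlap the 9 others and were all higher. The LPS mean, -0.095 ± 0.0295 (SD, n = 3), was 0.22 above the Unstimulated mean of -0.315 ± 0.0848, with no overlap. IL-10 alone lay 0.111 above Unstimulated and LPS+IL-10 0.062 above LPS, again without overlap, while JQ1 against Unstimulated (0.055) and LPS+JQ1 against LPS (-0.024) overlapped. Each of these sets 3 libraries against 3, where an exact two-sided permutation test cannot go below p = 0.1. Over all 3 treatments, LPS-stimulated libraries lay 0.177 above unstimulated ones on average. No p is given for this difference, because the separation was seen first and both width classes rest on peaks called in these libraries.

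**Figure D1:**
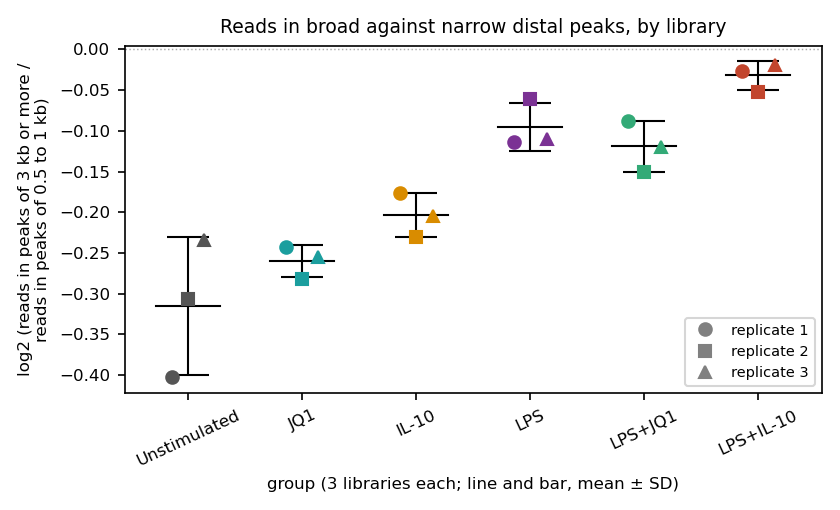
Log2 of the reads in broad distal peaks over the reads in 500 to 1000 bp distal peaks (y axis) in each library, by group (x axis), with replicate number as the marker and the mean ± SD of 3 libraries as lines. The libraries with LPS lie between -0.150 and -0.019 and those without between -0.403 and -0.176; Unstimulated replicate 1 is the lowest.

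The choice of the other peaks mattered to this ratio. Against all other distal peaks the LPS difference was 0.12, and against distal peaks of 1000 to 2000 bp it was 0.089. The IL-10 difference turned to -0.03 against peaks of 1000 to 2000 bp and the JQ1 difference to -0.083. As a share of all distal reads, broad peaks took 21.3% ± 0.21 in Unstimulated and 22.8% ± 0.26 in LPS libraries, 20.9% ± 0.21 with JQ1, 21.5% ± 0.16 with IL-10, 22.2% ± 0.29 with LPS+JQ1 and 23.1% ± 0.18 with LPS+IL-10 (SD, n = 3). With promoter reads counted too, the separation was lost. Of all reads in peaks, broad peaks took 12.5%, 12.24% and 11.74% in Unstimulated and 11.95%, 12.59% and 12.45% in LPS libraries. Libraries without LPS ranged from 10.11% to 12.5% and those with LPS from 11.41% to 13.41%.

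LPS against Unstimulated gave the most changes. A peak was called where edgeR's quasi-likelihood test, adjusted by Benjamini-Hochberg over all 194230 peaks tested, gave an adjusted p under 0.05 and the log2 fold change passed 0.5 in size. All 8720 broad peaks passed the filter on low counts. Of them 2292 (26.3%) rose and 1038 (11.9%) fell, where over all peaks tested 11.7% were higher and 10.2% lower. Of the 500 to 1000 bp peaks 6.70% rose and 9.72% fell. The median log2 fold change was 0.131 in broad peaks, -0.032 over all peaks and -0.146 in the 500 to 1000 bp peaks. Under total counts as the scaling, which moves the median of all peaks to -0.261, the split of broad peaks became 1469 higher and 1910 lower, with a median of -0.096, and under loess offsets 1462 and 1802, so the lean to higher calls holds only for some scalings.

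Read depth entered the counts of calls. The median standard error of the LPS log2 fold change was 0.15 in broad peaks and 0.387 in 500 to 1000 bp peaks, and a change beyond 0.5 in either direction, called or not, was seen in 38.2% of the former and 45.5% of the latter. When counts of each broad peak were thinned to those of 750 bp of its length, 1689 rose (19.4%) and 583 fell (6.69%). Within the broad class the share that rose still increased with width, from 17.6% at 3 to 4 kb to 20.1% at 4 to 6 kb and 23.8% at 6 kb or more. With all counts it was 24.1%, 27.4% and 31.5%. In the thinned fit, 20.6% of distal peaks of 2000 to 3000 bp, their own counts not thinned, rose and 12.2% fell. Of those of 500 to 1000 bp, 6.71% rose and 9.66% fell. Thinning, here and below, evened out length but not reads per kb, with medians of 2.58 CPM per kb in broad and 1.36 in 500 to 1000 bp peaks. Thinned broad peaks thus still held more reads than those peaks, and depth was not matched. The thinned share of broad peaks that rose was not above that of the next narrower class, which kept all its counts. Depth differed there as well, so no conclusion on width is drawn. With all counts in both, 26.3% of broad peaks and 20.6% of those of 2000 to 3000 bp rose.

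**Figure D2:**
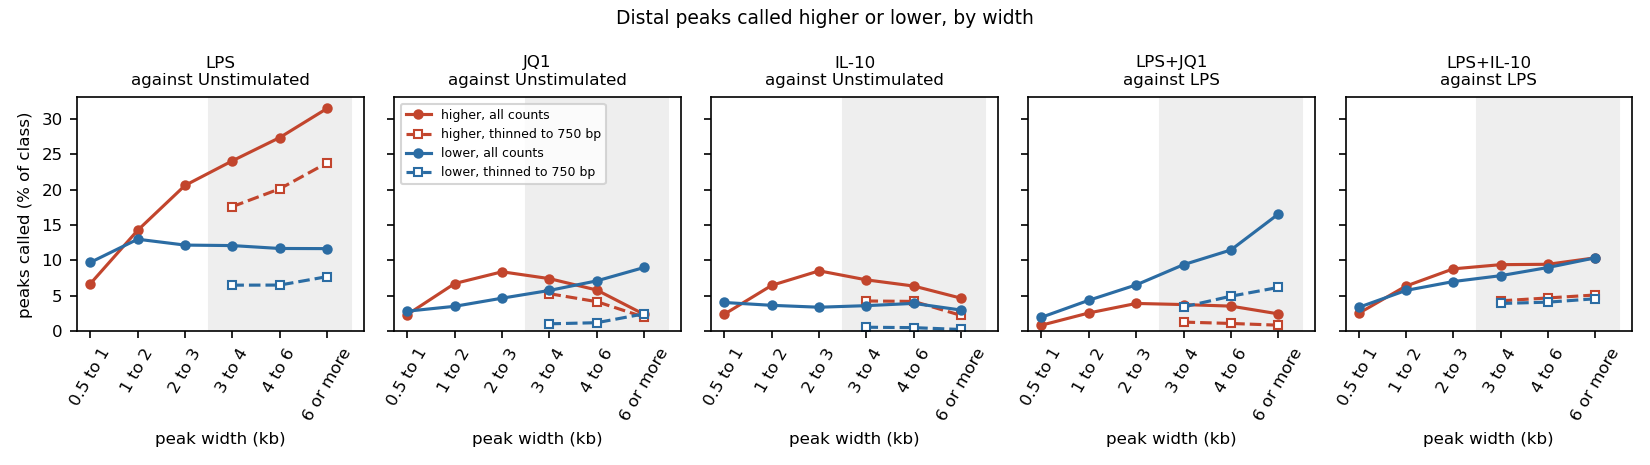
Percent of distal peaks called higher (red) or lower (blue) in each comparison (panels), by peak width in kb (x axis), with all counts (filled, solid) and with the counts of broad peaks thinned to 750 bp (open, dashed); grey marks the broad classes. With all counts, the rise with width is largest for higher calls on LPS and for lower calls with LPS+JQ1 against LPS.

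The broad peak with the largest rise lay 3616 bp from the TSS of Slfn9, a Schlafen-family gene (chr11:82808947-82812561, intergenic). It had 1.00, 1.70 and 1.48 CPM in the Unstimulated and 13.1, 15.0 and 12.2 CPM in the LPS libraries, a log2 fold change of 3.25 ± 0.22 (SE; adjusted p = 2.5e-24). The groups did not overlap. An intergenic peak 57167 bp from Gm4759 (chr7:113641753-113647308) followed, with 11.2, 10.8 and 14.6 against 89.5, 91.7 and 89.5 CPM (2.88 ± 0.15). Next came a peak by Oas1h, of the oligoadenylate synthetase family that senses double-stranded RNA (chr5:121320332-121323934), with 7.50, 5.33 and 4.71 against 40.3, 36.5 and 35.6 CPM (2.69 ± 0.16).

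Broad peaks near interferon-stimulated genes rose together. Those within 25 kb of their start sites numbered 32, around 18 of 25 genes, and 29 rose with LPS and none fell (24 to 30 higher over the settings), with a median log2 fold change of 1.36. Near Irgm1, an immunity-related GTPase (chr11:48675644-48680831), levels went from 9.04, 7.91 and 5.43 to 44.2, 47.7 and 48.2 CPM (2.65 ± 0.16). At Ifit1, an inhibitor of viral RNA translation (chr19:34719168-34722232, over an exon), they went from 3.01, 3.02 and 2.30 to 14.8, 16.8 and 17.6 CPM (2.56 ± 0.18). At Ifi205, of the family of cytosolic DNA sensors (chr1:175953765-175957672), they went from 3.21, 3.08 and 1.21 to 9.65, 12.7 and 10.9 CPM (2.16 ± 0.21). None of these groups overlapped.

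Cytokine and chemokine genes had a similar share. Of 20 broad peaks around 17 of 26 annotated genes, 17 rose and none fell, with a median of 1.27. The exon-overlapping peak between Ltb and Tnf, 702 bp from the Ltb TSS (chr17:35332272-35336684), held 18.2, 21.4 and 28.6 CPM in Unstimulated and 88.8, 104.7 and 115.5 CPM in LPS libraries (2.18 ± 0.15). At Il23a, a subunit of IL-23 (chr10:127727960-127733763), the values were 7.56, 7.36 and 7.23 against 30.2, 33.2 and 30.2 CPM (2.08 ± 0.14), and this peak also lies within 25 kb of Stat2. Near Il18, whose product is matured by inflammasomes (chr9:50392620-50395668), they were 4.35, 3.52 and 4.99 against 19.5, 16.5 and 16.3 CPM (2.03 ± 0.18).

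The peak 12401 bp from Il6, the gene of interleukin-6 (chr5:30352101-30355377, intergenic), was among the 5 broad peaks with the fewest reads per kb. Unstimulated libraries held 4.15, 1.59 and 1.59 CPM and LPS libraries 9.05, 8.04 and 9.79 CPM, a log2 fold change of 1.91 ± 0.23 (adjusted p = 4.4e-11). Unstimulated replicate 1 was the highest of its group but below every LPS library.

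Of 74 broad peaks around signal-dependent transcription factors and their inhibitors, 48 rose and 1 fell (median 0.759). The largest changes were 4330 bp from Gm17334 and within 25 kb of Irf1 (chr11:53591018-53597786; 19.5, 20.8 and 22.7 against 120.7, 121.1 and 129.1 CPM; 2.55 ± 0.14), at Socs1, an inhibitor of cytokine receptor signalling (2.52 ± 0.14), in an intron of Nfkb1, the p50 subunit of NF-kappaB (2.33 ± 0.16), and near Nfkbiz, a nuclear co-regulator of NF-kappaB (2.33 ± 0.14). Among 33 peaks at inflammatory enzymes, receptors and surface genes, 21 rose and 1 fell (median 0.848). An intron of Nlrp3, an inflammasome sensor (chr11:59372977-59377333), went from 7.03, 6.81 and 6.85 to 28.1, 31.1 and 24.8 CPM (2.02 ± 0.15), and the peak by Cd69 from 5.35, 3.19 and 2.69 to 12.9, 12.9 and 17.3 CPM (1.96 ± 0.19). The median over all peaks tested was -0.032. For these 4 lists the median stayed above 0 under every scaling tried, from 0.492 for the transcription factors to 1.40 for the interferon-stimulated genes.

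Macrophage identity genes were split. Around 30 of 36 annotated genes lay 82 broad peaks, of which 13 rose and 13 fell (6 to 17 and 11 to 22 over the settings); the median, 0.156, ranged from -0.083 to 0.196. The largest fall of any broad peak lay in an intron of Gpnmb, a lysosome-linked glycoprotein (chr6:49016185-49019726; nearest TSS 2410003K15Rik), too far from the Gpnmb TSS to count in the list. Its levels were 11.3, 15.2 and 19.6 CPM in Unstimulated and 1.65, 1.95 and 2.45 CPM in LPS libraries (-2.95 ± 0.20). In the list, the adjoining broad peaks of Gpnmb fell by 1.84 ± 0.15 and 1.64 ± 0.18 on the log2 scale. The exon-overlapping peak by Apoc1 and Apoe, apolipoprotein genes (chr7:20278523-20282743), fell by 2.04 ± 0.16, and that near Ctsd, cathepsin D (chr7:149553051-149557022), by 1.90 ± 0.16. Outside the lists as well, the window by Zfp36l1, which promotes decay of AU-rich mRNAs (chr12:81204570-81209294), went from 27.1, 36.0 and 44.4 to 6.02, 5.19 and 5.14 CPM (-2.71 ± 0.17), and a peak 50705 bp from Dnm1l from 11.9, 13.7 and 19.5 to 2.30, 2.10 and 2.99 CPM (-2.63 ± 0.19).

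**Figure D3:**
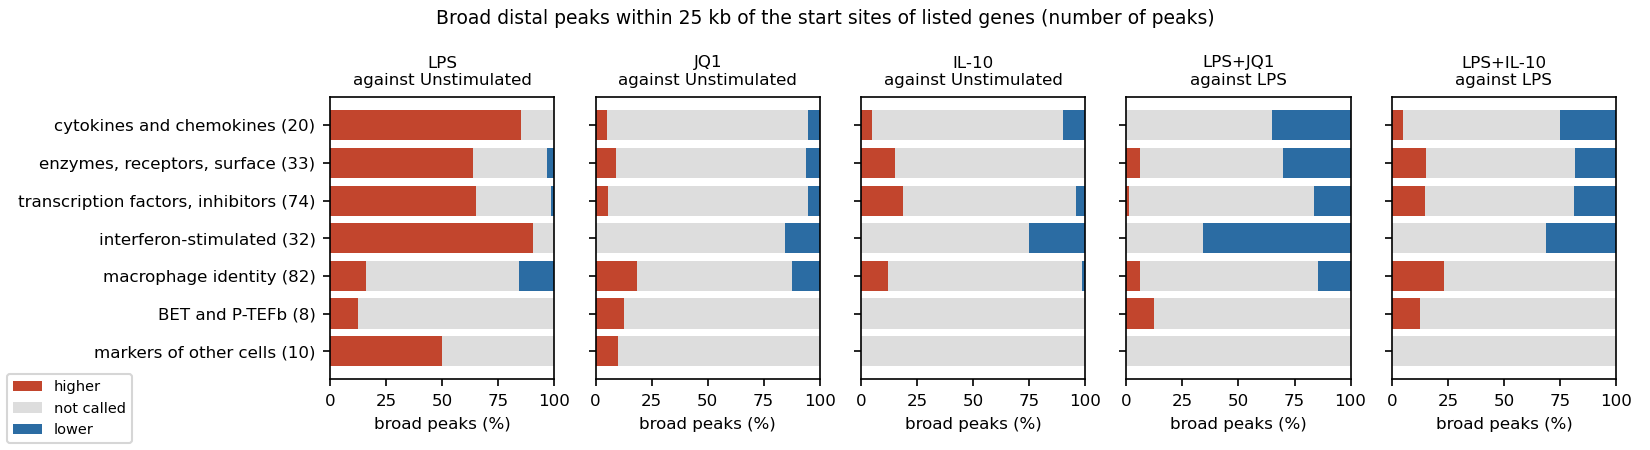
Percent of the broad peaks within 25 kb of the start sites of listed genes (rows, number of peaks in brackets) called higher (red), lower (blue) or not called (grey) in each comparison (panels). Interferon-stimulated genes have 29 of 32 higher with LPS and 21 of 32 lower with LPS+JQ1 than with LPS; macrophage identity genes have 19 of 82 higher with LPS+IL-10 than with LPS.

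Markers of other cell types had 10 broad peaks around 5 of 39 genes, and 5 rose with LPS and none fell (median 0.428, and 0 to 5 higher with medians of 0.153 to 0.468 over the settings), where 26.3% of all broad peaks rose. They included 2 in introns of Pecam1 (0.67 ± 0.17 and 0.61 ± 0.14) and 1 near Klrb1c (0.56 ± 0.15), and neither total counts as the scaling nor thinned counts left any of these 3 called. Whether other cells contributed to the LPS response was not tested. The BET and P-TEFb list had 8 broad peaks, of which 1 rose: the peak near Brd2 (chr17:34238390-34242975), from 23.4, 33.8 and 37.3 to 56.6, 61.5 and 58.8 CPM (0.90 ± 0.14, and 0.45 and not called under loess offsets).

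Many broad peaks of 1 gene often moved together. All 28 at Slco3a1 rose with LPS (median 1.42), as did 15 of 15 at Tmcc3, 15 of 15 at Lass6, 13 of 14 at Nostrin, 12 of 13 at Rapgef2 and 16 of 22 at Etv6. At Tns3, 0 of 27 rose and 1 fell, and at Runx1 3 rose and 6 fell. Peaks of 1 gene share their neighbourhood and are not independent. Over all broad peaks, LPS raised 28.2% of those with an IRF match and 21.0% of those without, and 31.8% against 25.8% for kappaB letters. The lean was not particular to these, with 27.53% against 22.3% for AP-1 and 27.25% against 22.17% for C/EBP. For PU.1 the shares were 26.0% and 26.41%. Peaks with a match were also wider (median 4087 against 3634 bp for IRF, 4212 against 3824 bp for PU.1), so match and width cannot be told apart here.

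The comparison of LPS+JQ1 with LPS asked which broad peaks differed in stimulated cells when BET proteins had been displaced first. Lower calls prevailed: 973 (11.2%) were lower and 304 (3.49%) higher, where over all peaks 3.49% were lower and 1.74% higher. Of the 500 to 1000 bp peaks, 1.96% were lower and 0.838% higher. The median log2 fold change was -0.001 in broad peaks, -0.061 in those of 6 kb or more and -0.003 over all peaks. This split was steady, with 15.3% to 28.8% of calls higher under each alternative. The share that was lower went up with width, from 9.40% at 3 to 4 kb to 11.5% at 4 to 6 kb and 16.6% at 6 kb or more. With counts thinned to 750 bp, 378 were lower (4.34%) and 100 higher. In the same fit, with their counts not thinned, 1.88% of distal peaks of 500 to 1000 bp and 4.32% of those of 1000 to 2000 bp were lower. Of those of 2000 to 3000 bp, 6.45% were. The thinned share still went from 3.43% to 4.94% and 6.18% over the 3 widths. Without replicate 2 the counts were 527 and 95.

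Interferon-stimulated genes again led, with 21 of 32 broad peaks lower, none higher and a median of -0.659. This median lay between -0.708 and -0.633 over the settings, while the number lower ran from 9, with thinned counts, to 22. At Igtp, an immunity-related GTPase (chr11:58005103-58009073), LPS libraries held 23.1, 22.9 and 24.0 CPM and LPS+JQ1 libraries 3.53, 6.11 and 5.89 CPM (-2.14 ± 0.16; adjusted p = 1.6e-20), about the 5.49, 4.40 and 4.82 CPM of the Unstimulated libraries. Irgm1 (13.5, 21.5 and 20.3 CPM; -1.33 ± 0.14), Ifit1 (5.76, 9.39 and 7.95 CPM; -1.07 ± 0.16) and Ifi205 (3.61, 3.44 and 2.71 CPM; -1.79 ± 0.20) fell too, without overlap with LPS.

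Of the 20 cytokine peaks 7 were lower and none higher (median -0.29). The peak near Il6 held 2.53, 2.24 and 2.02 CPM with LPS+JQ1 (-2.00 ± 0.23) and that near Il18 8.44, 5.24 and 4.77 CPM (-1.55 ± 0.17). The peak by Ltb and Tnf, with 114.1, 92.5 and 83.7 CPM, overlapped the LPS libraries (-0.09 ± 0.14; adjusted p = 0.80). Members of 1 list thus ranged from a fall to the Unstimulated level to no detectable difference. Of the enzyme and receptor peaks 10 of 33 were lower and 2 higher (5 to 10 and 1 to 2 over the settings); the Nlrp3 intron held 13.2, 10.8 and 12.1 CPM (-1.23 ± 0.14) while Cd69 did not pass (-0.17 ± 0.17). Of the transcription factor peaks 12 of 74 were lower and 1 higher (7 to 14 and 0 to 1 over the settings), among them that near Irf1 (-0.90 ± 0.13) and Socs1 (-0.63 ± 0.13). Nfkb1 was called (-0.62 ± 0.14) although LPS+JQ1 replicate 1, at 43.3 CPM, lay among the LPS libraries and the other 2, at 26.1 and 24.2, below them. Nfkbiz was not called (0.04 ± 0.13).

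The largest falls outside the lists were in an intron of Aoah, which deacylates LPS (chr13:21017651-21022314), with 14.8, 16.6 and 15.3 CPM in LPS and 3.68, 3.28 and 3.61 CPM in LPS+JQ1 libraries (-2.14 ± 0.17), and 26016 bp from Tlr7, a receptor of single-stranded RNA (chrX:163735523-163742407), with 16.0, 16.7 and 18.5 against 3.84, 2.95 and 4.65 CPM (-2.14 ± 0.17). At Tlr7 the LPS+JQ1 libraries lay below the 9.97, 10.1 and 12.4 CPM of unstimulated cells as well. By gene, 26 of 28 peaks at Slco3a1, 14 of 15 at Tmcc3, 13 of 14 at Nostrin, 12 of 18 at Mitf and 11 of 17 at Pid1 were lower, and none at Myo1e, Srgap2 or Zmiz1.

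Some broad peaks rose when (+)-JQ1 preceded LPS. An intergenic peak 70356 bp from Irg1, which makes itaconate (chr14:103370947-103375838), held 13.1, 14.9 and 12.1 CPM with LPS and 68.8, 58.1 and 58.2 CPM with LPS+JQ1 (2.20 ± 0.15), above the 34.6, 36.4 and 38.0 CPM of JQ1 alone. Near Zfp703 (chr8:28093449-28097587), 3.95, 3.65 and 2.99 CPM with LPS became 14.7, 10.8 and 10.6 CPM (1.74 ± 0.17), close to the 8.30, 9.51 and 12.5 CPM of unstimulated cells. Near Brd2, itself a target of the compound, levels rose from 56.6, 61.5 and 58.8 to 89.3, 93.1 and 86.0 CPM (0.60 ± 0.13; adjusted p = 0.00092). Of the macrophage identity peaks 12 of 82 were lower and 5 higher (3 to 13 and 1 to 8 over the settings), with a median of 0.15; the Apoe peak rose by 0.76 ± 0.16 and the Zfp36l1 window by 1.08 ± 0.17.

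**Figure D4:**
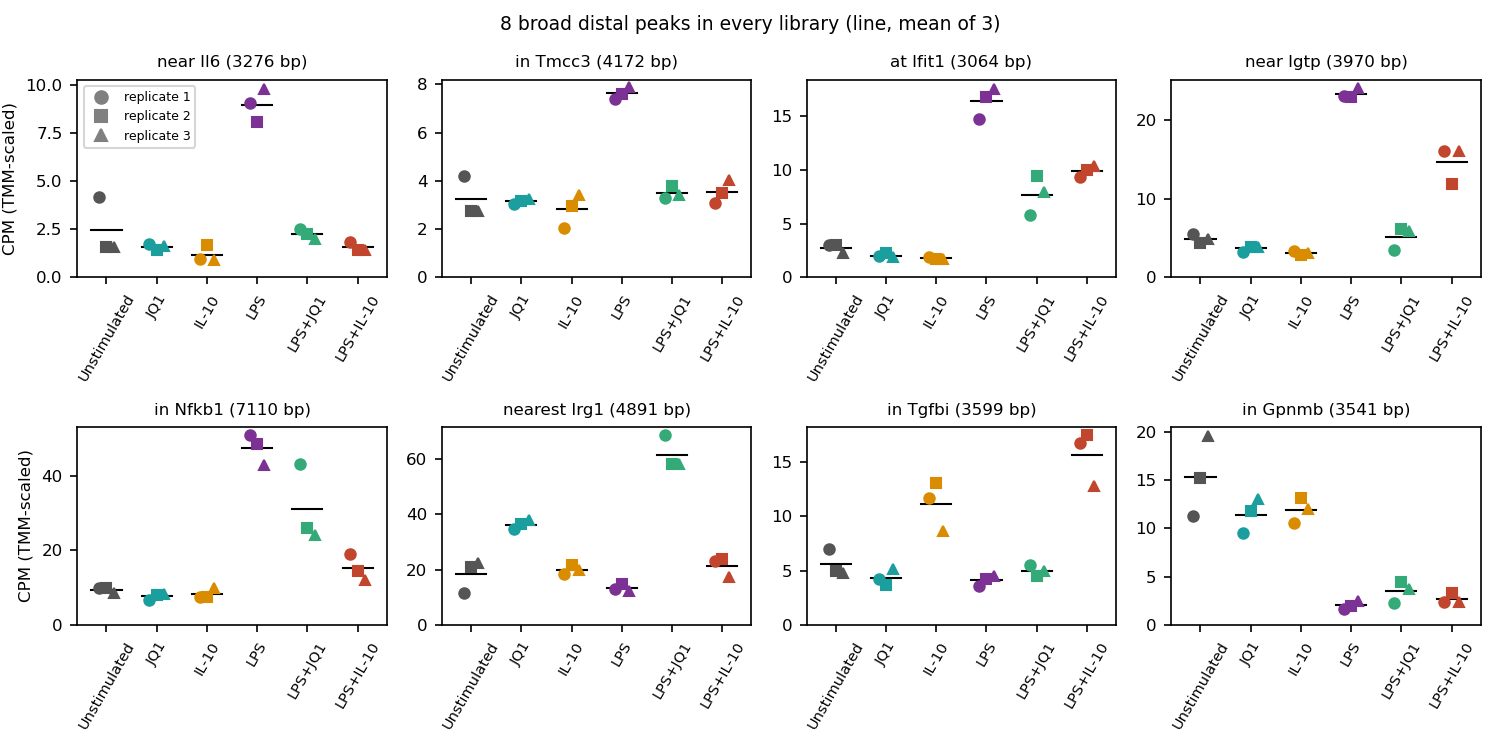
CPM (y axes, each from 0) of 8 named broad peaks in each library, by group (x axes), with replicate number as the marker and the mean of 3 as a line. Near Il6 the LPS+JQ1 and LPS+IL-10 libraries lie at 1.42 to 2.53 against 8.04 to 9.79 with LPS alone; the peak nearest Irg1 is highest with LPS+JQ1 and that in Tgfbi with LPS+IL-10.

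LPS+IL-10 against LPS gave both rises and falls. Of the broad peaks 834 (9.56%) were higher and 750 (8.60%) lower, where over all peaks 4.26% were higher and 4.51% lower; 2.50% and 3.35% of the 500 to 1000 bp peaks were. Total counts as the scaling gave 1093 higher and 628 lower. Thinned to 750 bp, 396 (4.54%) were higher and 355 (4.07%) lower. In the same fit, not thinned, so were 2.44% and 3.26% of the 500 to 1000 bp peaks. For those of 1000 to 2000 bp the shares were 6.34% and 5.76%, and for those of 2000 to 3000 bp 8.75% and 6.96%. LPS+JQ1 and LPS+IL-10 were both set against the same 3 LPS libraries.

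The largest falls were near Il6 and Rasgef1b, a guanine nucleotide exchange factor for Ras. The Il6 peak held 1.83, 1.45 and 1.42 CPM (-2.51 ± 0.24; adjusted p = 1.4e-14), no more than in unstimulated cells. Of a pair of neighbouring Rasgef1b peaks, the one at chr5:99637062-99642830 went from 89.9, 102.5 and 81.9 to 17.3, 19.0 and 15.0 CPM (-2.42 ± 0.14) and the one at chr5:99633529-99636855 from 27.2, 27.6 and 26.6 to 5.38, 6.08 and 4.55 CPM (-2.35 ± 0.16); with LPS+JQ1 they fell by 1.28 ± 0.13 and 1.33 ± 0.15. By list, 5 of 20 cytokine peaks were lower and 1 higher, 10 of 32 interferon-stimulated peaks lower and none higher (median -0.383; 5 to 11 lower over the settings), 14 of 74 transcription factor peaks lower and 11 higher, and 6 of 33 enzyme and receptor peaks lower and 5 higher. The Nfkb1 intron held 19.0, 14.4 and 12.2 CPM (-1.65 ± 0.15), the peak near Irf1 53.6, 47.0 and 44.7 CPM (-1.35 ± 0.13) and Cd69 4.42, 4.23 and 4.23 CPM (-1.74 ± 0.18), all below every LPS library.

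Macrophage identity peaks moved the other way, with 19 of 82 higher and none lower (median 0.179; 12 to 20 higher and medians of 0.175 to 0.244 over the settings). The largest rises over all broad peaks were near Nfam1, an activating myeloid receptor (chr15:82820204-82825017), from 4.04, 3.55 and 4.36 to 17.6, 16.2 and 14.0 CPM (2.00 ± 0.16), in an intron of March1, a ubiquitin ligase that removes MHC class II from the surface (chr8:68953528-68958112), from 3.77, 4.70 and 5.91 to 21.6, 16.6 and 16.9 CPM (1.95 ± 0.16), and over an exon of Tgfbi, a secreted adhesion protein (chr13:56722224-56725823), from 3.54, 4.25 and 4.48 to 16.8, 17.6 and 12.8 CPM (1.94 ± 0.17). At Nfam1 this brought levels back towards the 16.5, 19.5 and 23.0 CPM of unstimulated cells, whereas at March1 and Tgfbi they passed them. By gene, 26 of 28 peaks at Slco3a1 and 14 of 15 at Tmcc3 were lower, 15 of 17 at Pid1 and 13 of 17 at Ppm1h higher. At Pid1 the medians were -0.798 with LPS+JQ1 and 0.836 with LPS+IL-10, each against LPS. At Nostrin 2 of 14 were lower with LPS+IL-10, against 13 with LPS+JQ1, though the 2 treatments were not tested against each other.

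In the reported fit, (+)-JQ1 called 1118 broad peaks without LPS against 1277 with it, and IL-10 888 against 1584. For (+)-JQ1 this order did not hold in every fit. LPS+JQ1 against LPS gave 290 higher and 986 lower under total counts and 236 and 1045 under loess offsets, fewer than JQ1 alone. Without LPS, the balance of direction was a matter of scaling too. JQ1 against Unstimulated called 535 (6.13%) higher and 583 (6.69%) lower, where over all peaks 7.85% were higher and 3.15% lower. Total counts gave 51 higher and 2392 lower, loess offsets 12 and 1670, DESeq2 655 and 453, a filter of 10 counts in every library 238 and 1133, scaling on distal peaks alone 858 and 304, and thinned counts 386 and 113. Leaving out replicate 2 gave 114 and 185, and leaving out Unstimulated replicate 1 gave 298 and 427. No direction for the class is therefore given. The rule's largest rises were in an intron of Pde7b, a cAMP phosphodiesterase (12.5, 12.4 and 19.6 against 30.5, 38.7 and 30.5 CPM; 1.16 ± 0.15), near Ptprj, a receptor phosphatase (1.09 ± 0.15), and in an intron of Cltc, the clathrin heavy chain (1.04 ± 0.14, and 0.464 and not called under loess offsets). The largest falls were over an exon of Gtf2ird2 (14.2, 14.1 and 17.4 against 5.19, 4.55 and 4.13 CPM; -1.73 ± 0.16), near Clec4a2, an inhibitory lectin receptor (-1.60 ± 0.21), and near Enc1 (-1.41 ± 0.15). The Brd2 peak rose by 0.81 ± 0.14 without LPS, but under loess offsets it stood at 0.10 and was not called. Of the interferon-stimulated peaks 5 were lower and none higher (1 to 16 lower over the settings), and of 27 peaks at Tns3 11 were lower.

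IL-10 alone called 573 (6.57%) higher and 315 (3.61%) lower, where over all peaks 5.16% were higher and 3.5% lower. Total counts gave 153 and 1100, loess offsets 75 and 900, the filter of 10 counts 298 and 620, scaling on distal peaks alone 814 and 190, thinned counts 343 and 42, the fit without replicate 2 141 and 62, and the fit without Unstimulated replicate 1 382 and 159. Named rises were large against that. A peak 18568 bp from Fcgr2b, the inhibitory Fc receptor (chr1:172884597-172887690), held 5.15, 3.57 and 4.38 CPM in Unstimulated and 13.1, 11.2 and 15.9 CPM in IL-10 libraries (1.62 ± 0.16), and with LPS+IL-10 it reached 43.1, 38.1 and 36.1 CPM against 15.0, 15.2 and 10.8 with LPS (1.51 ± 0.14). A pair of broad peaks at Il4ra, the interleukin-4 receptor, rose by 1.48 ± 0.16 and 1.48 ± 0.15 with IL-10 alone and by 1.67 ± 0.15 and 1.59 ± 0.14 with IL-10 before LPS; neither was called on LPS alone. The largest falls were near Pigy, of GPI anchor synthesis (5.69, 5.11 and 4.49 against 1.82, 1.70 and 1.79 CPM; -1.52 ± 0.20), near Alcam, an adhesion molecule (-1.44 ± 0.25), and in an intron of Slco3a1 (-1.16 ± 0.21, and -0.83 and not called with thinned counts). Interferon-stimulated peaks had 8 lower and none higher (1 to 14 lower over the settings), and macrophage identity peaks 10 higher and 1 lower, a balance that also turned with the scaling.

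**Figure D5:**
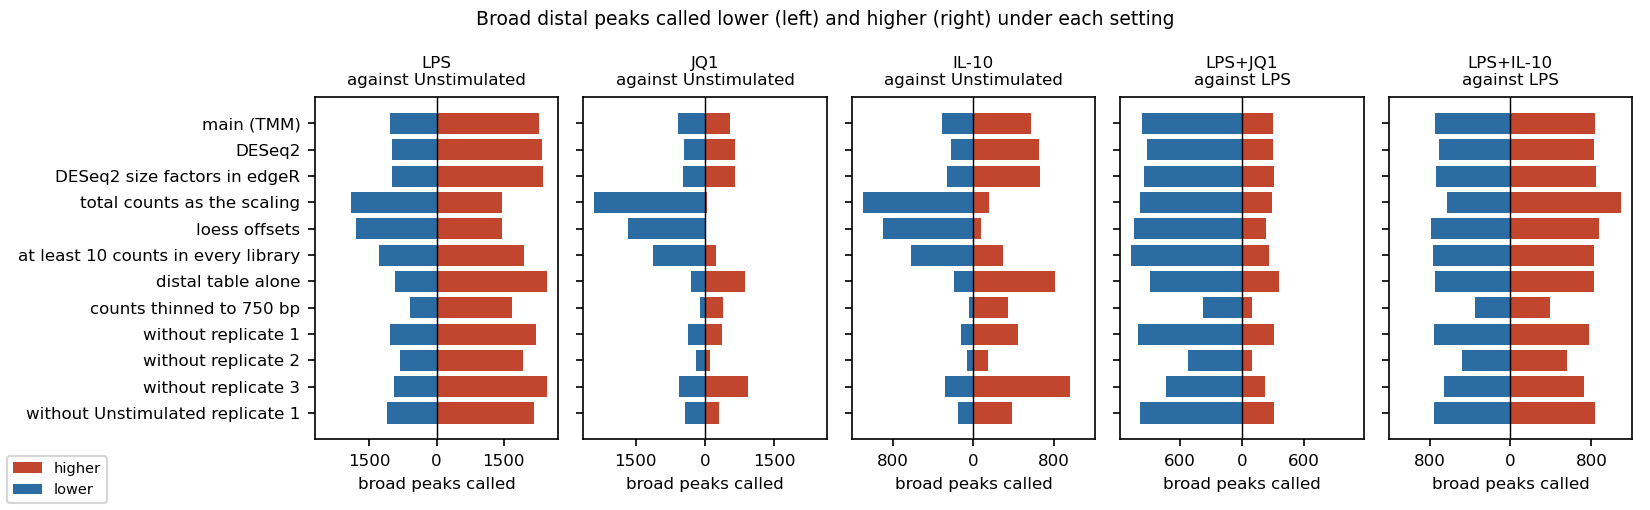
Number of broad peaks called lower (blue, left) and higher (red, right) in each comparison (panels) under each setting (rows). The split stays put for LPS+JQ1 against LPS, 304 higher and 973 lower as reported. For LPS and for IL-10 against Unstimulated it turns to mostly lower when total counts or loess offsets set the scale. For JQ1 against Unstimulated, 535 higher and 583 lower as reported, it becomes almost all lower there. Under DESeq2 it turns to mostly higher (655 and 453), as with distal peaks alone (858 and 304).

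Whether (+)-JQ1 or IL-10 acted differently in stimulated and unstimulated cells was tested as an interaction. For (+)-JQ1 it was called in 494 broad peaks (5.67%), 170 with a higher and 324 with a lower effect under LPS, where over all peaks 3.84% were called. For IL-10 it was called in 978 (11.2%), 386 higher and 592 lower, over a background of 7.91%. Of the 500 to 1000 bp peaks 1.16% and 3.36% were called. The direction of these calls was again a matter of scaling, since total counts gave 850 higher and 116 lower for (+)-JQ1 and 1584 and 229 for IL-10, loess offsets 655 and 99 and 1335 and 181, the filter of 10 counts 392 and 326 and 824 and 530, and scaling on distal peaks alone 90 and 300 and 243 and 662. Leaving out replicate 2 gave 29 and 155 calls, and leaving out replicate 1 gave 229 and 597. Thinned counts gave 80 and 220. No direction for the class is given here either.

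The 5 widest broad peaks all overlapped exons. The widest, 31771 bp and 88869 bp from Fam49a (chr12:12357813-12389584), rose with LPS from 39.4, 31.6 and 27.5 to 99.5, 92.2 and 96.7 CPM (1.55 ± 0.14), kept 125.3, 82.0 and 91.4 CPM with LPS+JQ1 (0.05 ± 0.13, not called) and fell to 53.7, 46.6 and 50.4 CPM with LPS+IL-10 (-0.94 ± 0.14, and -0.82 and not called with thinned counts). The window by Cpb2 (22307 bp) rose by 1.05 ± 0.14 with LPS, although not past the call under loess offsets, and that by Slc24a6 (25552 bp) had a log2 fold change of -1.01 ± 0.14, which was -0.53 and not called with thinned counts. The window by Pttg1ip (23789 bp) rose with LPS+IL-10, from 37.9, 40.1 and 41.2 to 72.7, 70.3 and 64.7 CPM (0.80 ± 0.13), and that by Btbd9 (24006 bp) was called in no comparison of the reported fit. Under total counts and loess offsets, Btbd9 (-0.68 and -1.1) and Fam49a (-0.66 and -1.13) were called lower with JQ1 alone. So were Slc24a6 (-0.56 and -1.02) and Pttg1ip (-0.59 and -1.03). Pttg1ip was then also called lower with LPS (-0.72 and -0.96). Loess offsets called Btbd9 (-0.74), Slc24a6 (-0.68) and Pttg1ip (-0.55) lower with IL-10 alone.

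The densest broad peak, near Rps9 (chr7:3658821-3662251; 15.8 CPM per kb), rose with LPS (0.68 ± 0.14) and with IL-10 alone (0.94 ± 0.14). Those near Mdm1, in Pik3ap1 and in 2210009G21Rik were called with JQ1 alone (1.02 ± 0.14, 0.65 ± 0.13 and 0.62 ± 0.14). These calls of dense peaks against Unstimulated turned on the scaling. Under loess offsets the 3 JQ1 values were 0.32, -0.08 and -0.01 and the IL-10 value at Rps9 0.45, none of them called, and the LPS changes at Rps9 and Mdm1 (0.21 and 0.09) were lost as well. Under total counts the LPS changes at Rps9 and Mdm1 (0.45 and 0.32) and the JQ1 changes at Pik3ap1 and 2210009G21Rik (0.37 and 0.36) were not called. Among the 5 sparsest, which included the Il6 peak, those at D14Ertd668e, Tmcc3 and Rfwd3 rose with LPS by 1.20 ± 0.23, 1.25 ± 0.20 and 1.00 ± 0.21 and were lower with LPS+JQ1, by -1.17 ± 0.23, -1.12 ± 0.20 and -0.78 ± 0.20. With thinned counts these 3 LPS+JQ1 values were -1.03, -0.94 and -0.93 and not called. In Tmcc3 (chr10:93943876-93948048) the LPS libraries held 7.40, 7.59 and 7.88 CPM and the LPS+JQ1 libraries 3.30, 3.77 and 3.41 CPM, without overlap.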

How the data were processed

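ATAC-seq libraries were made by Nextera transposition with 10 to 14 PCR cycles. The authors processed reads with PEPATAC, kept uniquely mapped Bowtie2 alignments to mm9, called peaks per library with MACS2, merged them, and split them with ChIPseeker into promoter and distal. They deposited raw read counts per peak and library; the counting tool is not given in the sources used here. Overlapping cuts, PCR copies without molecular identifiers and merging of neighbouring peaks can all change a broad peak's count and width. Another 6 columns that belong to no listed sample were not used.

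Distal and promoter tables were joined, filtered (filterByExpr) and fitted for all 6 groups in edgeR 4.0.16 (R 4.3.3) with TMM scaling and the quasi-likelihood test. CPM are TMM-scaled. SE is the size of the log2 fold change over the root of F. Alternatives used DESeq2 1.42.0 and limma 3.58.1. The reported fit has no replicate block, as in the study. Replicate 1 was sequenced in lane 5 and replicate 3 in lane 6. Replicate 2 was in lane 5 without LPS and in lane 6 with LPS, so lane partly followed LPS. With lane as a covariate, LPS against Unstimulated gave 2310 broad peaks higher and 1078 lower. The read ratio was not adjusted for lane. Totals of 12020526 to 25908198 counts limit precision. Genes and exons came from GENCODE on NCBIM37 (mm9). Peak positions are as deposited, with the start convention not stated. Named per comparison were the 3 largest rises and falls seen in every same-numbered comparison, then the 5 widest, densest and sparsest peaks, and up to 4 per gene list by LPS change. The broad class, the lists and the rules were chosen with earlier results of these data known. The procedure was tested on simulated data. Some items chosen by these rules are not reported here.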

Additional observations from a re-analysis of the deposited data

Results flagged for a closer look

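For 48 values of broad peaks named above, the effect of a treatment differed between stimulated and unstimulated cells by an interaction term (edgeR quasi-likelihood, adjusted p under 0.05 over all peaks tested). The values are the log2 effect with LPS minus the log2 effect without it.

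With (+)-JQ1, 2 of the 4 named peaks of the interferon-stimulated list passed, Igtp with -1.73 ± 0.25 (SE; adjusted p = 3.1e-06) and Ifi205 with -1.67; Irgm1 (-0.67; adjusted p = 0.08) and Ifit1 (-0.61; adjusted p = 0.23) did not. Of the named cytokine peaks Il6 (-1.42), Il18 (-1.37) and Il23a (-0.81) passed and the peak by Ltb and Tnf (-0.40; adjusted p = 0.29) did not. The Nlrp3 intron (-1.57 ± 0.21), the peak near Irf1 (-0.85) and Socs1 (-0.7) passed, while Cd69 (0.47), Nfkb1 (-0.32) and Nfkbiz (-0.56) did not. By DESeq2's test, Irgm1 (-0.7, adjusted p = 0.043) and Nfkbiz (-0.59, adjusted p = 0.012) passed as well. Outside the lists, values were negative in Aoah (-1.69) and near Fcgr2b (-1.64), Slfn9 (-1.48), Gm4759 (-1.25), Tlr7 (-1.23), Oas1h (-1.14), Tmcc3 (-1.1), the Rasgef1b peak starting at 99637062 (-0.92) and Mdm1 (-0.71). They were positive near Zfp703 (1.52 ± 0.24), Enc1 (1.43), Zfp36l1 (1.38), the Gpnmb intron (1.26), the peak nearest Irg1 (1.22), Dnm1l (1.07) and Nfam1 (1.06).

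Under loess offsets the (+)-JQ1 difference was no longer significant for Rasgef1b (-0.43), Mdm1 (-0.11), Il23a (-0.49), the peak near Irf1 (-0.24) and Socs1 (-0.29), and under total counts for Il6 (-1.13), Tmcc3 (-0.82), Il23a (-0.53) and Socs1 (-0.44). With counts thinned to 750 bp, which leaves fewer reads by construction, 16 of the 24 were not significant: Slfn9 (-1.31), Gm4759 (-1.15), Oas1h (-1.29), the Gpnmb intron (0.65), Dnm1l (1.30), Enc1 (1.43), Tlr7 (-1.27), Nfam1 (1.11), Il6 (-1.18), Rasgef1b (-0.85), Mdm1 (-0.69), Tmcc3 (-1.42), Il23a (-0.44), the peak near Irf1 (-0.80), Socs1 (-0.90) and Ifi205 (-1.64).

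With IL-10, the peak near Irf1 had the most negative value of the named peaks, -1.88 ± 0.19 (adjusted p = 7.9e-12). It was followed by the pair at Rasgef1b (-1.56 and -1.4), Il6 (-1.49), Il18 (-1.47), Nfkb1 (-1.46), Gm4759 (-1.27), Nfkbiz (-1.2), Cd69 (-1.14), the Nlrp3 intron (-1.13), Tmcc3 (-0.92), Gtf2ird2 (-0.89), Socs1 (-0.81), Brd2 (-0.73), the peak by Ltb and Tnf (-0.72), Has1 (-0.71), Irgm1 (-0.65) and Mdm1 (-0.61). Values were positive at Nfam1 (1.55 ± 0.21), March1 (1.55), Pigy (1.19), Dnm1l (1.18), Tgfbi (0.94) and Pttg1ip (0.86).

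Under loess offsets significance of the IL-10 difference was lost at Tmcc3 (-0.91), Socs1 (-0.36), Brd2 (-0.03), Ltb (0.00), Has1 (-0.28), Irgm1 (-0.28) and Mdm1 (0.07), and under total counts at Tmcc3 (-0.64), Has1 (-0.45), Irgm1 (-0.37) and Mdm1 (-0.34). With thinned counts 9 of the 24 were not significant: Dnm1l (1.34), Tgfbi (0.69), Il6 (-1.45), Mdm1 (-0.39), Tmcc3 (-0.71), Has1 (-0.71), Cd69 (-0.83), Irgm1 (-0.40) and Brd2 (-0.52). With the filter of 10 counts in every library Tmcc3 (-0.82) and Irgm1 (-0.55) were not, and with the replicate number as a block Irgm1 had an adjusted p of 0.054.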

How the results depend on the processing

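Under DESeq2, DESeq2 size factors, no filter, the replicate block, lane as a covariate and distal peaks alone, the 72 values of named peaks tracked across settings kept their call and direction. Each was the comparison for which its peak had been named. Calls of the same peaks in other comparisons did change. DESeq2 changed, among others, 5 (+)-JQ1 interactions, Irgm1 and Nfkbiz included, and 4 calls with JQ1 alone. Distal peaks alone changed 5 calls with JQ1 alone, 5 with IL-10 alone and 4 with LPS+JQ1 against LPS. A block on the replicate number gave 540 higher and 596 lower broad peaks for JQ1, 574 and 321 for IL-10, 302 and 981 for LPS+JQ1, 836 and 754 for LPS+IL-10 and 450 and 950 interactions, and the median difference of same-numbered libraries in the LPS+IL-10 read ratio was 0.088, against 0.062 between means; of the results printed above it moved 1 call, the IL-10 interaction at Irgm1. Deviations of same-numbered libraries correlated at a mean of 0.00573 over all peaks (-0.0819 to 0.0644), so the numbers were not read as pairs. Depth limits the sparse peaks, and the cause was not tested for shifts that the construction does not show.

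Counts are given as higher and lower, and interactions as JQ1 and IL-10. Total counts gave LPS 1469 and 1910 (median -0.096), JQ1 51 and 2392, IL-10 153 and 1100 and interactions 966 and 1813. Loess offsets gave LPS 1462 and 1802 (median -0.094), JQ1 12 and 1670, IL-10 75 and 900 and interactions 754 and 1516. Total counts moved the median of all peaks to -0.261, -0.366 and -0.257 for LPS, JQ1 and IL-10. At least 10 counts gave JQ1 238 and 1133 and IL-10 298 and 620. Distal peaks alone gave JQ1 858 and 304 and 190 lower with IL-10. DESeq2 gave 832 JQ1 interactions. Thinned counts gave 583 lower with LPS, 113 lower with JQ1, 343 and 42 with IL-10, 100 and 378 with LPS+JQ1, 396 and 355 with LPS+IL-10, and 80 and 220 interactions. The 4167 peaks of 4000 bp or more, fewer by construction, gave LPS 1195 and 487, JQ1 197 and 321, IL-10 243 and 151, LPS+JQ1 133 and 545, LPS+IL-10 406 and 393 and interactions 287 and 498. Leaving out 1 replicate number or Unstimulated replicate 1 gave LPS 1923 to 2464 and 826 to 1101, JQ1 114 to 921 and 185 to 565, IL-10 141 to 960 and 62 to 286, LPS+JQ1 95 to 309 and 527 to 1007, LPS+IL-10 559 to 836 and 482 to 760, and interactions 29 to 455 and 155 to 936. Without Unstimulated replicate 1 alone, a setting chosen after seeing the data, JQ1 had 298 higher and IL-10 159 lower. The log2 read ratio differed by 0.12 (LPS), -0.037 (JQ1), 0.013 (IL-10) and 0.027 (LPS+IL-10) against all other distal peaks, and by 0.089, -0.083, -0.03 and 0.023 against those of 1000 to 2000 bp. Without these libraries it was 0.175 to 0.268 for LPS, 0.002 to 0.093 for JQ1, 0.053 to 0.152 for IL-10, -0.05 to 0.008 for LPS+JQ1 and 0.048 to 0.089 for LPS+IL-10.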
